A study of Mus musculus with 6 samples.

Results

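The integrin and laminin chain genes are the genes for the subunits of 2 families of proteins that join cells to their surrounding matrix. They were taken as the array rows annotated with exactly 1 gene symbol that names an integrin alpha or beta chain or a laminin chain, apart from Itga2b, the platelet integrin alpha chain, which was left out by that rule and is used below only as a platelet marker. This gave 28 of the 14860 genes measured, 21 named as integrins and 7 as laminins. The 6 integrin genes known mainly from white blood cells (Itgal, Itgam, Itgb2, Itgb2l, Itgae and Itgb7) were kept apart from the other 15. The pattern also took in Itgbl1, which codes for a secreted protein with integrin-like repeats that is not itself an integrin chain. Every one of the 28 genes had a single row, and no filter on dim signal was applied.

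Expression was measured in mouse hearts at E13.5, in pools of 4 to 6 hearts, on 6 Affymetrix exon arrays. The 3 control pools were Hic2 FL/FL, with 2 floxed copies of the zinc finger repressor gene Hic2 and no Cre. The 3 conditional knockout (cKO) pools were Mesp1 Cre/+; Hic2 FL/FL, so both groups carried the floxed alleles and only the cKO carried the Mesp1 Cre allele, which drives recombination in early mesoderm, the source of most heart cells. The comparison asks how these genes differed once Hic2 was removed, and it cannot tell Hic2 removal and the Cre allele apart, since no pool carried Cre alone. The values are log2 expression values, on which a difference of 1 is a doubling of signal, and they can be compared between arrays for the same gene but not between genes.

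Integrins are pairs of an alpha and a beta chain that span the cell membrane, bind matrix proteins or other cells outside, and couple to the actin cytoskeleton inside through talin and kindlin. The alpha chain largely sets what is bound: laminin, collagen, or proteins with the RGD sequence such as fibronectin. Laminins are trimers of an alpha, a beta and a gamma chain that form the base sheet of the basement membranes around heart muscle cells, endocardium, epicardium and vessels, and leukocytes use integrins of their own to leave the blood and to hold on to other cells.

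None of the 28 genes passed the test. Differences between the genotypes were compared with limma, a linear model fitted across all 14860 genes, with a Benjamini-Hochberg adjusted p under 0.05 as the threshold. Across all genes 0.559% passed it, and 0 of the 28 did, the smallest adjusted p being 0.0673 for Itgb3. At an unadjusted p under 0.05 there were 4 of 28 genes, all lower in the cKO (14.3%), against 17.5% of all genes in either direction and 6.8% of all genes in the lower direction. The 28 log2 differences ran from -0.36 for Itgb3 to 0.13 for Lamb3. Their median was -0.04, beside 0.00 over all genes. The 95% confidence intervals of the 28 genes together reached from -0.54 to 0.31 on the log2 scale, a signal change between -31.4% and 23.8%.

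**Figure D1:**
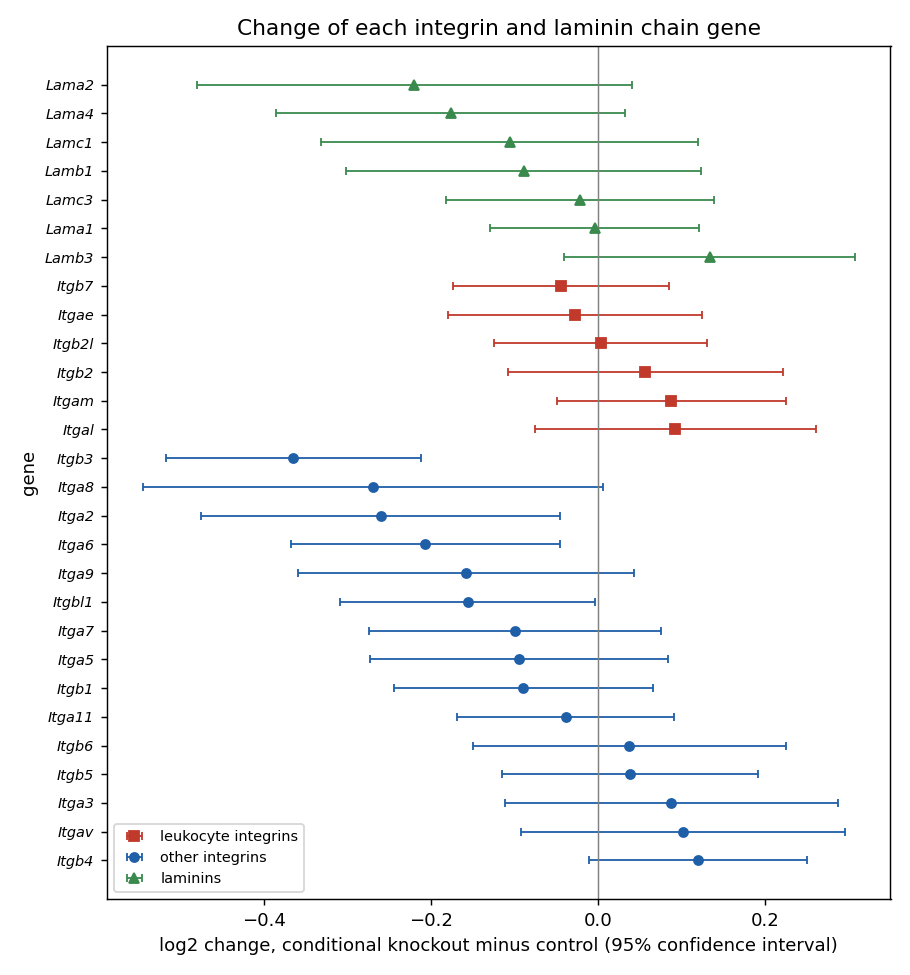
Log2 difference between cKO and control hearts for each of the 28 genes, with 95% confidence intervals from the limma fit (3 arrays per genotype); squares are leukocyte integrins, circles the other integrins and triangles the laminins. The estimates lie between -0.36 and 0.13, with Itgb3 lowest.

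The 6 arrays correlated at 0.993 to 0.997 over all genes, and their medians lay between 7.41 and 7.48. Hic2 itself stood at 8.10, 8.26 and 8.14 in the control and at 8.07, 7.96 and 8.04 in the cKO pools, a difference of -0.14 ± 0.07 (SE) that did not pass (limma adjusted p = 0.314), and the place of its probes relative to the deleted part is unknown here. The Y-linked gene Eif2s3y was at 8.51 to 9.64 on 5 arrays and at 4.36 on the remaining array, control replicate 3. Cardiomyocyte markers had a mean log2 value over 6 measured genes of 12.628 to 12.685 in the control pools and 12.517 to 12.602 in the cKO pools, without overlap. Of these 6 genes 0 passed, and 2 (33.3%) were lower without overlap, where 10.4% of all genes were. The 6 differences were uneven, from -0.37 for Nkx2-5 to 0.07 for Myl2, with 4 below 0 and 2 above. Mean log2 values of 12 erythroid markers were 9.83 to 10.002 in the control and 9.04 to 9.37 in the cKO pools, and those of 20 macrophage markers were 7.86 to 7.98 and 8.21 to 8.24. Of the 12 erythroid markers 6 passed on the lower side, where 0.222% of all genes did, and 0 to 6 passed when a pool was left out, with 0 without control replicate 2 and 2 without control replicate 1 or 3. All 12 erythroid differences were below 0 but uneven, from -1.33 for Trim10 to -0.05, with Hba-x at -0.26 and Gata1 at -0.23. The part of these cell types in the members' values was not tested. In pools of whole hearts, fewer cells of a type and less RNA per cell cannot be told apart.

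Sequences upstream of the transcription start are shown for 5 genes: the 3 with the most negative differences among those that have an entry in RefSeq's promoter table (Itga8, Itga2 and Lama2), a leukocyte integrin (Itgam), and the only member among those with an entry whose sequence held the response element known for HIC proteins (Itgb5). Each is the 250 bases before the annotated start, read along the gene's own strand on mouse build GRCm38.p6, from RefSeq. Of the 28 genes, 17 had an entry. Capitals mark matches on either strand to GGGCANCC (the HIC response element), GAGGAA (the core bound by the leukocyte factor PU.1 and its ETS relatives) or GGGCGG (the SP1 box).
Itga8, chr2:12301945-12302194, minus strand: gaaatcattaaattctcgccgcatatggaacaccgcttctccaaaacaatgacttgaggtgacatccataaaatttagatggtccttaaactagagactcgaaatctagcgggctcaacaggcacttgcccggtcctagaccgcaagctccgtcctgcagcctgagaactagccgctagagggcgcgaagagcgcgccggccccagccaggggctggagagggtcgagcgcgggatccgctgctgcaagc
Itga2, chr13:114932101-114932350, minus strand: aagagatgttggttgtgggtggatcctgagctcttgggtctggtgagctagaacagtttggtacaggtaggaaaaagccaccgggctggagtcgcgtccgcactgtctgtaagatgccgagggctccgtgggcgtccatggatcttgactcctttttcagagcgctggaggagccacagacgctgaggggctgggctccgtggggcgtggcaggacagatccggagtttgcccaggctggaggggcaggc
Lama2, chr10:27616943-27617192, minus strand: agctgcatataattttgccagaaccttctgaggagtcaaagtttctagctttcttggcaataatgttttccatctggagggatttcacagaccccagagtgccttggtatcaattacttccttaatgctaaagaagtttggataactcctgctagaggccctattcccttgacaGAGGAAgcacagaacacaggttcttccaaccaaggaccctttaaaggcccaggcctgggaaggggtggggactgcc
Itgb5, chr16:33829415-33829664, plus strand: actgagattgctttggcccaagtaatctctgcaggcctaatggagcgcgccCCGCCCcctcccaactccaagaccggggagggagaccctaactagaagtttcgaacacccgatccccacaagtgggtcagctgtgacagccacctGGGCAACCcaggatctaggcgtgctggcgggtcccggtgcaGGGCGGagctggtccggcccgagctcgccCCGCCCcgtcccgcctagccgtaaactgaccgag
Itgam, chr7:128062390-128062639, plus strand: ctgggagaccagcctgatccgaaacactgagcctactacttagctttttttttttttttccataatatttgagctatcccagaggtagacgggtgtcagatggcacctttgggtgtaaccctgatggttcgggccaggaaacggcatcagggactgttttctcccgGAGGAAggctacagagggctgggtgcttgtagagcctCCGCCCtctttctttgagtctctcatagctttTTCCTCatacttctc
The 250 bases of Itga8 and Itga2 held none of the 3 motifs, and those of Lama2 held 1 GAGGAA, starting 76 bases before the annotated start. Itgam held GAGGAA on 2 occasions, at 84 and 15 bases before the start, and an SP1 box at 47 bases. Itgb5 held the HIC response element at 104 bases and SP1 boxes at 199, 63 and 34 bases. Among the 32851 entries of all genes, windows of the same length held GGGCANCC in 4.53%, GAGGAA in 23.3% and GGGCGG in 32.7%. The 17 members had 20 entries, of which 1, 11 and 8 held the same motifs. A match is a description of the letters and not evidence of binding.

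Itgb3 had the largest difference of any member. It codes for the integrin beta chain that pairs with the Itgav product on vascular and many other cells and with the Itga2b product on platelets and their precursors. Its log2 value was 8.93, 8.91 and 8.82 in the control pools and 8.54, 8.58 and 8.44 in the cKO pools. All 3 cKO values lay below all 3 control values, with a gap wider than the range within either genotype. The mean went from 8.89 ± 0.06 to 8.52 ± 0.07 (SD, n = 3 each), a difference of -0.36 ± 0.07 (SE) with a 95% confidence interval of -0.52 to -0.21, equal to a signal change of -22.3%. The limma adjusted p of 0.0673 missed the threshold. The gene ranked 146 of 14860 by unadjusted p. It passed under 3 of the 14 alternative settings, with adjusted p = 0.0438 under a variance trend with robust moderation, 0.0210 with array weights and 0.0162 among genes at or above the median of all gene means, and the adjusted p ran from 0.0162 to 0.213 over all 14.

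**Figure D2:**
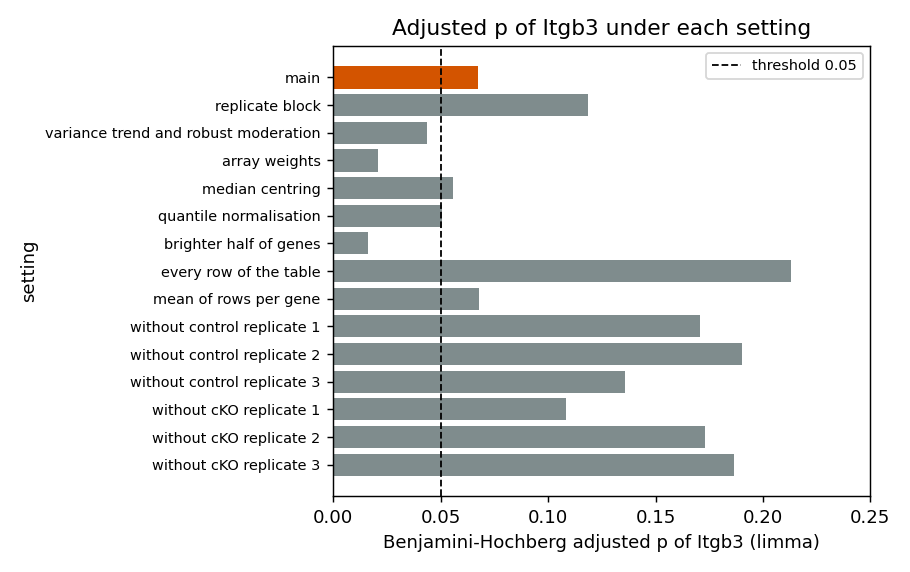
Benjamini-Hochberg adjusted p of Itgb3 from limma (horizontal axis) under the main setting (orange) and each of 14 alternatives (grey), with the threshold of 0.05 as a dashed line. The bars of 3 alternatives end left of the line and the longest, with every row of the table tested, reaches 0.213.

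The partners and neighbours of Itgb3 did not share its separation. Itgav, the alpha chain of the vitronectin receptor, stood at 10.28, 10.45 and 10.29 in the control and at 10.58, 10.36 and 10.38 in the cKO pools (0.10 ± 0.08, limma adjusted p = 0.570). Itgb5, another beta chain that joins Itgav and the gene with the HIC response element above, stood at 11.20, 11.24 and 11.29 in the control and at 11.36, 11.31 and 11.19 in the cKO pools (0.04 ± 0.07, limma adjusted p = 0.807). Itgb6, an epithelial beta chain, lay between 4.13 and 4.41 on all 6 arrays (0.04 ± 0.08). In all of these genes the genotypes overlapped. The platelet partner Itga2b stood at 8.77, 8.84 and 8.42 in the control and at 8.41, 8.44 and 8.03 in the cKO pools, a difference of -0.38 ± 0.15 with overlapping groups (limma adjusted p = 0.240). Of the 6 measured platelet and megakaryocyte markers, 5 were on the lower side and 0 passed, with a median of -0.27, and 3 (50%) had an unadjusted limma p under 0.05 on the lower side, where 6.8% of all genes did. The mean level of that list was 8.68 to 9.19 in the control and 8.59 to 8.92 in the cKO pools. Of 10 smooth muscle and pericyte markers 1 passed, on the lower side, where 0.222% of all genes did. It was the potassium channel gene Kcnj8 (-0.53 ± 0.08, limma adjusted p = 0.0424), which did not pass when any 1 pool was left out (limma adjusted p = 0.0735 to 0.148). The 10 differences ran from -0.53 for Kcnj8 to 0.09, with 7 below 0, 3 above and a median of -0.07. In 2 of the 10 (20%) the cKO was lower without overlap, where 10.4% of all genes were. The mean level of these 10 markers was 10.17 to 10.21 in the control and 10.03 to 10.14 in the cKO pools, without overlap. The part of platelets or of vessel wall cells in the Itgb3 difference was not tested.

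Apart from Itgb3, 4 members had groups that did not overlap, 3 of them lower and 1 higher in the cKO. With Itgb3 that makes 5 of 28 genes (17.9%), where 24.6% of all genes had groups that did not overlap, so the members' share is not above the background. The 4 lower ones are 14.3% of the members, against 10.4% of all genes lower without overlap, and the 1 higher is 3.57%, against 14.2%. Itga2, a collagen-binding alpha chain known best from platelets and epithelia, stood at 7.995, 8.10 and 8.06 in the control and at 7.97, 7.78 and 7.63 in the cKO pools. Itga6, a laminin-binding alpha chain of endothelial and epithelial cells, stood at 11.70, 11.82 and 11.78 in the control and at 11.65, 11.56 and 11.47 in the cKO pools. In both genes cKO replicate 1 was the nearest to the control values. Their differences were -0.26 ± 0.09 and -0.21 ± 0.07 (SE), and neither passed (limma adjusted p = 0.216 and 0.198). Itgbl1 stood at 6.18, 6.22 and 6.23 in the control and at 5.94, 6.11 and 6.10 in the cKO pools (-0.16 ± 0.07, limma adjusted p = 0.275), and here cKO replicate 1 was the farthest from the controls. The higher gene was Itgb4, the beta chain that anchors epithelial cells to laminin, at 7.40, 7.34 and 7.32 in the control and 7.498, 7.44 and 7.48 in the cKO pools (0.12 ± 0.06, limma adjusted p = 0.320). Itgb4 pairs with Itga6, and the members of that pair lay on opposite sides of 0. Epithelial markers of neighbouring organs had 10 of 11 measured genes on the lower side, where 48.4% of all genes were, with 0 past the threshold. Their median was -0.11, which was -0.047 with 8 of 11 lower when control replicate 1 was left out. Only 1 of the 11 (9.09%) was lower without overlap, against 10.4% of all genes, and Krt14 was higher (0.44). Of these 11 dim genes 0 had a mean at or above the median of all gene means. Of 14 endothelial markers 0 passed, 10 were on the higher side and 4 on the lower, and the median was 0.07. Groups did not overlap in 5 of the 14 (35.7%), 4 of them higher in the cKO, where 24.6% of all genes did not. The mean level of the 14 was 10.37 to 10.42 in the control and 10.44 to 10.52 in the cKO pools, without overlap. The part of neighbouring organs or of endothelium in these differences was not tested.

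In 4 of the 7 laminin genes, Lama2, Lama4, Lamb1 and Lamc1, picked out after the values were seen, the SD was larger among the cKO pools than among the controls. Lama2, the alpha chain typical of muscle, stood at 8.83, 8.95 and 8.89 in the control and at 8.93, 8.56 and 8.52 in the cKO pools. Lama4, the alpha chain of vessels and developing muscle, stood at 11.07, 11.16 and 11.15 in the control and at 11.12, 10.95 and 10.79 in the cKO pools. In both, cKO replicate 1 lay within the control range and cKO replicates 2 and 3 lay below it. Lamb1, the beta chain common to many embryonic laminins, stood at 10.43, 10.50 and 10.53 in the control and at 10.57, 10.39 and 10.23 in the cKO pools. Lamc1, the gamma chain found in most laminins, stood at 11.11, 11.23 and 11.28 in the control and at 11.29, 11.08 and 10.94 in the cKO pools. For these 2 genes cKO replicate 1 was the highest of all 6 arrays and cKO replicates 2 and 3 were the lowest. The cKO SD was 0.23 for Lama2, 0.16 for Lama4, 0.17 for Lamb1 and 0.17 for Lamc1, against control SDs of 0.06, 0.05, 0.05 and 0.09. In Lama1, Lamb3 and Lamc3 the cKO SD was the smaller, and over all members it was the larger in 17 of 28 genes, where 49.6% of all genes had that order. The differences were -0.22 ± 0.11, -0.18 ± 0.09, -0.09 ± 0.09 and -0.11 ± 0.10 (SE), and none passed (limma adjusted p = 0.353, 0.352, 0.662 and 0.617).

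The remaining laminins did not follow that order. Lamb3, a beta chain of epithelial laminin, stood at 6.99, 6.92 and 7.12 in the control and at 7.20, 7.06 and 7.18 in the cKO pools (0.13 ± 0.07, limma adjusted p = 0.392). Lama1, the alpha chain of the earliest embryonic basement membranes, was between 6.58 and 6.65 on all 6 arrays, and its difference was 0.00 ± 0.05 with a 95% confidence interval of -0.13 to 0.12. Lamc3 stood at 8.05, 8.003 and 8.17 in the control and at 7.97, 8.11 and 8.07 in the cKO pools (-0.02 ± 0.07). Over the 7 laminins 6 differences were below 0 and the median was -0.09, beside 48.4% of all genes below 0. The medians over the laminins, taken per array as the difference from the control mean, were 0.04 in cKO replicate 1, -0.10 in cKO replicate 2 and -0.25 in cKO replicate 3. Without cKO replicate 1 the laminin median was -0.18, and it was -0.03 at its nearest to 0 over the 6 settings that left out a pool.

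**Figure D3:**
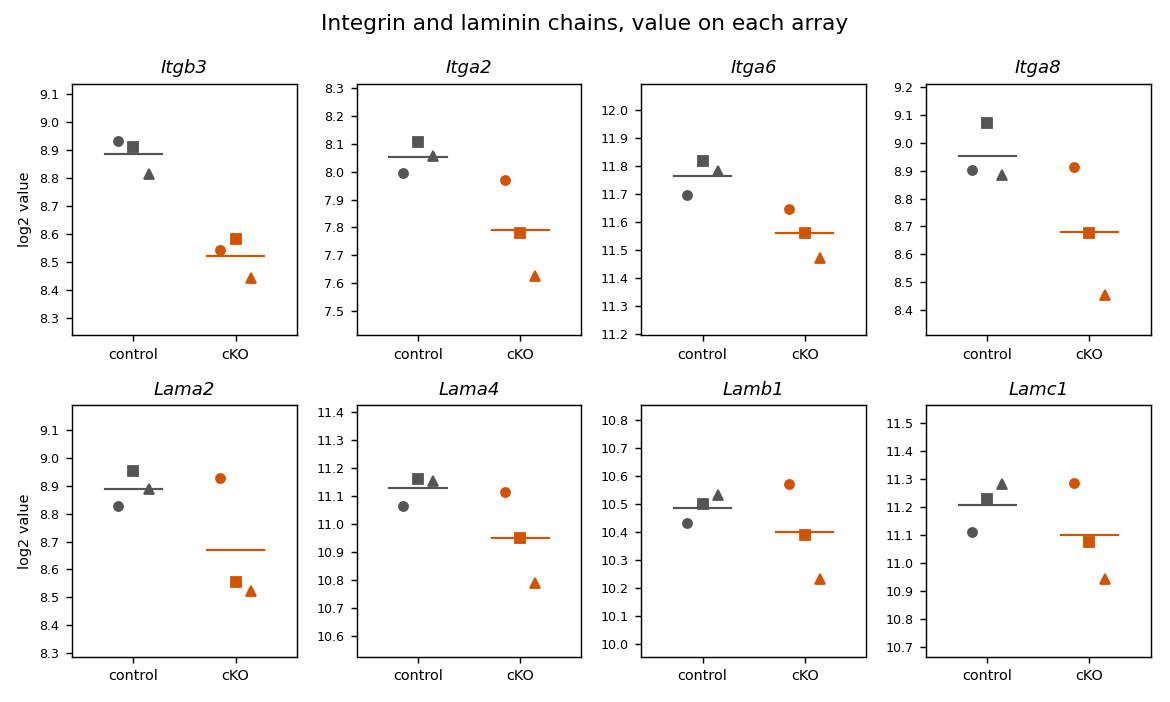
Log2 value on each array (vertical axis) of 4 integrin and 4 laminin genes in control and conditional knockout (cKO) hearts; circles, squares and triangles are replicates 1, 2 and 3, lines are group means, and every panel spans the same height on the log2 scale. Itgb3, Itga2 and Itga6 are separated in all 3 cKO pools, while in the laminin panels cKO replicate 1 lies within or above the control range.

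Among the integrin alpha chains the same array order recurred. Itga8, an RGD-binding chain of mesenchyme and smooth muscle, stood at 8.90, 9.07 and 8.88 in the control and at 8.91, 8.68 and 8.45 in the cKO pools (-0.27 ± 0.12, limma adjusted p = 0.293). Itga9, which binds tenascin and related ligands and is known from lymphatic and valve endothelium, stood at 9.45, 9.66 and 9.66 in the control and at 9.56, 9.39 and 9.35 in the cKO pools (-0.16 ± 0.09). Itga5, the main fibronectin-binding chain, stood at 11.14, 11.19 and 11.16 in the control and at 11.22, 11.02 and 10.97 in the cKO pools (-0.09 ± 0.08). In all of these cKO replicate 1 lay within or above the control range and replicates 2 and 3 lay below it. Without cKO replicate 1, 9 members (32.1%) reached an unadjusted limma p under 0.05, all of them lower. They were Itga2, Itga5, Itga6, Itga8, Itga9, Itgb3, Lama2, Lama4 and Lamc1. In that setting 8.6% of all genes were on the lower side, and 0 members passed after adjustment. Where cKO replicate 1 is the highest cKO pool, leaving it out lowers the cKO mean by construction. The count of 9 therefore restates the array order and is not separate evidence of a difference. The other 5 settings that left out a pool gave 1 to 4 such members of the 28 on the lower side, where 4.43% to 7.04% of all genes were. In 17 of the 28 genes (60.7%) cKO replicate 1 was the highest of the 3 cKO pools, where 38.9% of all genes had that order, and this count was made after the values were seen. Among the members it was so in 1 of 6 leukocyte integrins, 10 of 15 other integrins and 6 of 7 laminins. The order was not particular to these genes, and it did not hold in every list. The same share was 60% of the 30 adaptors, 68.4% of the 19 basement membrane partners and 72.7% of the 11 other laminin receptors. It was 69.0% of the 29 integrin ligands, 75% of the 12 epicardial and 91.7% of the 12 erythroid markers. Lists with a lower share included the 6 cardiomyocyte (33.3%), 20 macrophage (20%) and 11 epithelial markers (9.09%). Of the 6 platelet and the 11 skeletal muscle markers it was 0%.

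Further alpha chains, and the shared beta chain, showed small differences. Itga7, the laminin-binding chain of muscle, stood at 6.99, 7.03 and 7.18 in the control and at 6.88, 7.05 and 6.97 in the cKO pools (-0.10 ± 0.07). Itga3, a laminin-binding chain of epithelia and epicardium, stood at 8.47, 8.46 and 8.34 in the control and at 8.68, 8.44 and 8.42 in the cKO pools (0.09 ± 0.09). Of 12 epicardial markers 3 passed on the higher side, the retinoic acid enzyme gene Aldh1a1 (0.75 ± 0.08), Msln (0.57 ± 0.08) and Upk1b (0.41 ± 0.06), with limma adjusted p = 0.0184, 0.0418 and 0.0481, where 0.336% of all genes passed on that side. Leaving out cKO replicate 1 left 1 call, and leaving out any other pool left 0. In 11 of the 12 the groups did not overlap, 10 of them higher in the cKO, against 24.6% of all genes in either direction, and the list's mean level was 9.85 to 10.003 in the control and 10.14 to 10.30 in the cKO pools. The part of the epicardium in the values of Itga3 was not tested. Itga11, a collagen-binding chain of fibroblasts, lay between 6.70 and 6.80 on all 6 arrays (-0.04 ± 0.06). Itgb1 joins most of the alpha chains named here. It stood at 12.15, 12.24 and 12.20 in the control and at 12.14, 12.17 and 12.01 in the cKO pools, a difference of -0.09 ± 0.07 with a 95% confidence interval of -0.24 to 0.07. In Itga7, Itga3, Itga11 and Itgb1 the groups overlapped, and the limma adjusted p lay between 0.529 and 0.767. Over the 15 integrins outside leukocytes 10 differences were below 0 and the median was -0.09.

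The leukocyte integrins did not differ detectably between the genotypes. Itgal and Itgam are the alpha chains of the lymphocyte and the macrophage integrin, and both pair with the beta chain Itgb2. Itgal stood at 7.09, 7.29 and 7.12 in the control and at 7.24, 7.33 and 7.22 in the cKO pools. Itgam stood at 6.15, 6.26 and 6.16 in the control and at 6.30, 6.29 and 6.24 in the cKO pools, and Itgb2 at 6.77, 6.88 and 6.68 against 6.85, 6.88 and 6.77. In each of the 3 genes the lowest values were in control pools and the groups overlapped through control replicate 2. The differences were 0.09 ± 0.07, 0.09 ± 0.06 and 0.06 ± 0.07 (SE), with limma adjusted p = 0.550, 0.478 and 0.726. Array weights, which gave cKO replicate 2 a weight of 4.19, put Itgal and Itgam under an unadjusted limma p of 0.05 but not past the adjusted threshold. In that setting 13.0% of all genes were under 0.05 on the higher side. On the lower side 6 members were, beside 12.9% of all genes.

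The other leukocyte chains lay closer to 0. Itgb2l, a neutrophil gene resembling Itgb2, stood at 6.43, 6.38 and 6.45 in the control and at 6.43, 6.44 and 6.40 in the cKO pools (0.00 ± 0.05). Itgae, the alpha chain of T cells within epithelia, stood at 5.14, 4.97 and 5.11 in the control and at 5.04, 5.03 and 5.07 in the cKO pools (-0.03 ± 0.07). Its partner Itgb7 stood at 6.998, 7.05 and 7.05 in the control and at 6.99, 6.94 and 7.03 in the cKO pools (-0.04 ± 0.06). The groups overlapped for every one of the 6 leukocyte integrins, and their median difference was 0.03. The 95% confidence intervals of the 6 together ran from -0.18 to 0.26 on the log2 scale, a signal change between -11.7% and 19.8%. None of the 6 had a mean at or above the median of all gene means, whereas 9 of the other 15 integrins and 4 of the 7 laminins did, and no detection p was used here, so background signal in these rows was not measured.

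**Figure D4:**
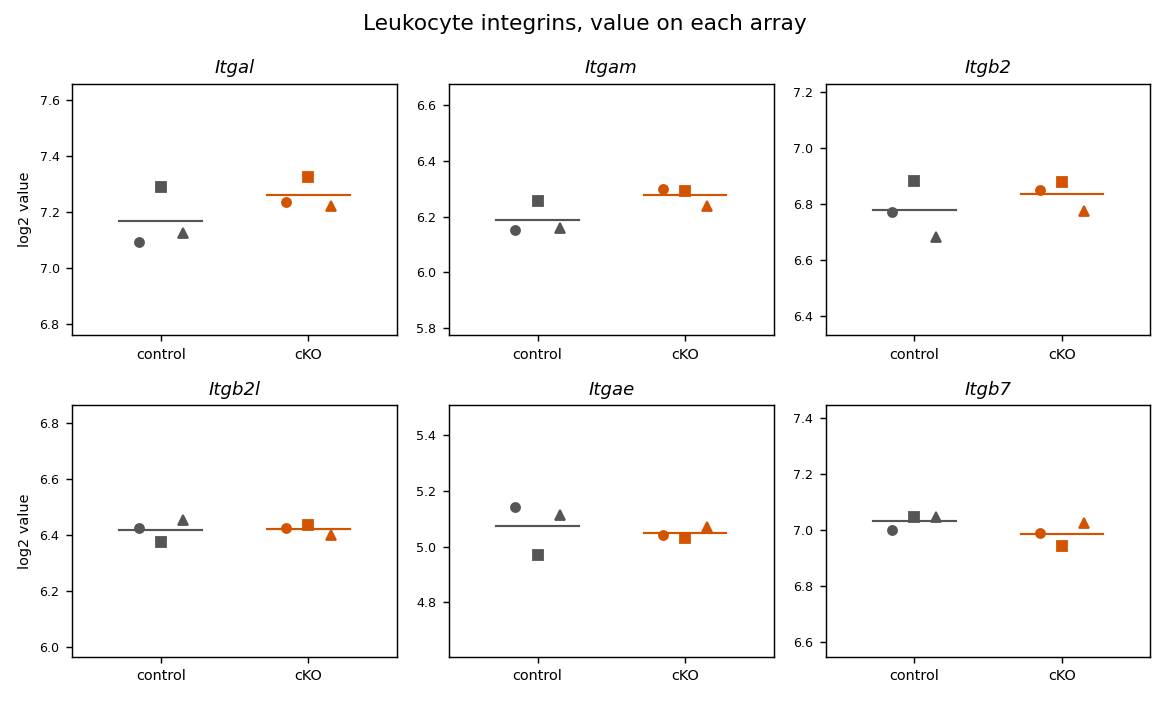
Log2 value on each array (vertical axis) of the 6 leukocyte integrins in control and conditional knockout (cKO) hearts; circles, squares and triangles are replicates 1, 2 and 3, lines are group means, and every panel spans the same height on the log2 scale. The genotypes overlap in all 6 panels.

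Of 20 measured macrophage markers 3 passed on the higher side, at the edge of the threshold, and 12 had groups that did not overlap, all higher in the cKO, where 14.2% of all genes were higher without overlap. The 3 were the scavenger receptor Msr1 (0.87 ± 0.13, SE), the complement gene C1qc (0.45 ± 0.07) and the Fc receptor Fcgr3 (0.69 ± 0.11), with limma adjusted p = 0.0440, 0.0471 and 0.0492. None of the 3 passed when any 1 pool was left out, with limma adjusted p = 0.0605 to 0.170, and 0 of the 20 passed over every row of the table. Of all genes 0.336% passed on the higher side. Of the 20 markers 19 lay above 0 and the median was 0.21, beside 0.03 for the leukocyte integrins. Spi1, the gene for PU.1, stood at 7.97, 7.85 and 7.87 in the control and at 8.29, 8.24 and 8.30 in the cKO pools (0.38 ± 0.06), with an adjusted p of 0.0517 in the same limma fit. Of the 7 lymphocyte and the 12 neutrophil and mast cell markers measured, 0 passed, with medians of 0.00 and 0.02. Whether the difference of the leukocyte integrins differed from that of the macrophage markers was not tested. The macrophage list was chosen with its earlier result on these arrays known, so its direction is not independent evidence.

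Genes that work with these chains were described in the same way. Of 30 measured adaptor and adhesion proteins, which link integrins to actin, 0 passed, 14 were on the higher side and 16 on the lower. The median was -0.01 and the differences ran from -0.24 to 0.59. At an unadjusted limma p under 0.05 there were 5 on each side, 33.3% of the list, where 17.5% of all genes were. In 11 (36.7%) the groups did not overlap, 6 higher and 5 lower, where 24.6% of all genes did not. The smallest p belonged to the docking protein gene Bcar1 (0.26 ± 0.06), the adaptors Lims1 (-0.21 ± 0.08) and Tgfb1i1 (-0.20 ± 0.07) and vinculin, Vcl (-0.24 ± 0.09). Vcl stood at 10.95, 11.15 and 11.04 in the control and at 10.96, 10.79 and 10.66 in the cKO pools, an order like that of Lama4. Of 19 basement membrane partners 0 passed and the median was -0.01, with the collagen gene Col15a1 (-0.47 ± 0.09, limma adjusted p = 0.0806) and the netrin gene Ntn1 (0.22 ± 0.06) nearest to the threshold. Col15a1 stood at 8.18, 8.31 and 8.48 in the control and at 7.74, 7.94 and 7.87 in the cKO pools, with no overlap.

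Receptors and ligands outside these families gave the same count of calls. Of 11 other laminin receptor genes, which include dystroglycan and its partners, 0 passed and the median was 0.00. The sarcoglycan genes Sgcd (0.22 ± 0.07) and Sgca (0.18 ± 0.07) and the tetraspanin Cd151 (0.13 ± 0.06), a partner of laminin-binding integrins, had the smallest p. These 3 of 11 genes (27.3%) were higher in the cKO without overlap, where 14.2% of all genes were. The other genes of the list overlapped. Of 29 integrin ligands other than laminins 0 passed and the median was -0.01. Icam2 and Icam1, cell surface ligands of the Itgb2 integrins, differed by 0.45 ± 0.07 and 0.43 ± 0.11, Tgfb1, whose latent form binds Itgav integrins, by 0.29 ± 0.06 and the matrix protein gene Tnc by -0.35 ± 0.11. Their limma adjusted p was 0.0559, 0.134, 0.105 and 0.183. In all of these 4 ligands the genotypes did not overlap, as in 7 of the 29 (24.1%), where 24.6% of all genes did not. Icam2, for example, stood at 9.20, 8.97 and 9.03 in the control and at 9.50, 9.49 and 9.57 in the cKO pools.

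**Figure D5:**
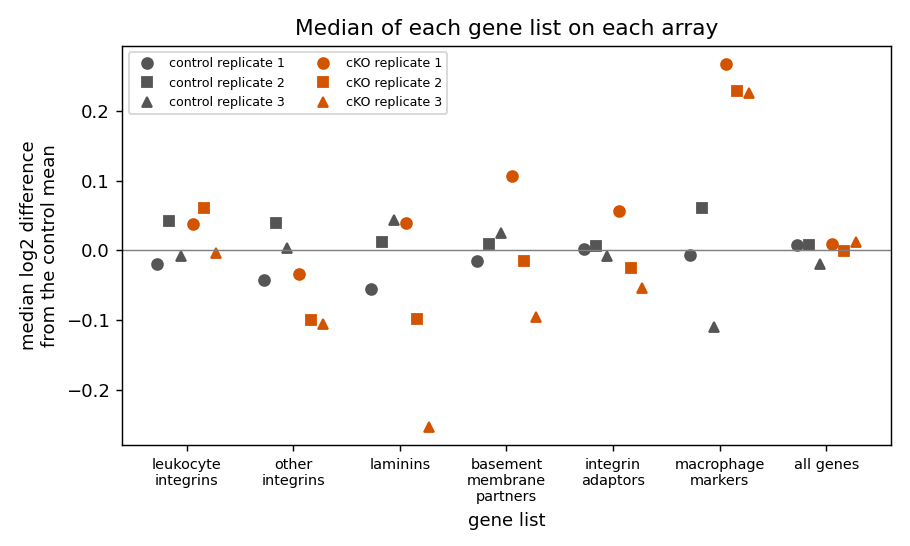
Median over each gene list of the log2 difference from the control mean (vertical axis), per array, for control (grey) and conditional knockout (cKO, orange) pools; circles, squares and triangles are replicates 1, 2 and 3. All 3 cKO pools lie at 0.23 to 0.27 for macrophage markers, and the laminin medians run from -0.25 to 0.04 among the cKO pools.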

How the data were processed

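Labelled RNA from 6 pools of hearts was hybridised to 1 array each. The values are log2 expression, which the authors made with RMA (Affymetrix Expression Console) before they deposited them, as the submitters' processing notes list; its version was not stated. RMA gives the arrays a shared distribution of signal and compresses differences of dim rows.

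Rows were named through the platform annotation: 14996 of 23332 had 1 symbol, giving 14860 genes, the row with the highest mean being kept. Of 38 integrin and laminin chain symbols, 28 had such a row. The rows for Itga1, Itga4 and Itgax also named another gene and were left out, and the other chains were not analysed here.

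Genes were compared with limma 3.58.1 (lmFit, eBayes, R 4.3.3), two-sided, cKO minus control, with 3 arrays per genotype and 7.46 moderated degrees of freedom. The number of arrays limits the precision, and the spread is between pools, not embryos. The fit was tested on simulated data. Errors beside differences are SEs from this fit. Values are given on every array for members past the threshold, leukocyte integrins, members with separate groups and the 10 next by p. Outside that rule they are also given for Itga3, Lamb1, Itgb5 and Lamc3. From other lists come genes past the threshold and up to 4 with the smallest p. The members and lists were chosen with earlier results of these data known.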

Additional observations from a re-analysis of the deposited data

How the results depend on the processing

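The count of genes past the limma threshold, 83 in all, was 38 with the replicate block, 203 with a variance trend and robust moderation, 733 with array weights, 443 among genes at or above the median of all gene means and 0 over every row of the table (2935 rows at an unadjusted p under 0.05), and 3 to 28 when a pool was left out. Members past the threshold were 0 and became 1, Itgb3, with the variance trend, with array weights and among those brighter genes, where only 13 members were tested; they were 0 in all 6 settings that left out a pool, with Itgb3 between -0.40 and -0.32 and its adjusted p between 0.108 and 0.190. The cause of these shifts was not tested. Leaving out a pool gave medians of -0.18 to -0.03 for laminins, -0.12 to -0.05 for other integrins, 0.01 to 0.05 for leukocyte integrins, 0.19 to 0.29 for macrophage markers, -0.02 to 0.01 for adaptors and -0.06 to 0.05 for basement membrane partners. The sign turned in 11 of 377 member values, in 5 genes near 0: Itgb2l (-0.018 after median centring, and -0.018 to 0.020 when a pool was left out), Itgb6 (-0.050 with array weights, -0.032 to 0.11), Itgae (-0.081 to 0.0060), Lama1 (-0.021 to 0.014) and Lamc3 (0.028 with array weights, -0.056 to 0.025).

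The correlations of the deviations of same-numbered pools from their group means were -0.04, 0.02 and 0.13. Those of differently numbered pools ran from -0.23 to 0.22. With 3 pools per genotype these values cannot show whether the numbers pair the pools. The replicate block changed no call among the 28 members. Over the 14 settings the calls ran from 0 to 8 among macrophage markers and from 0 to 9 among erythroid markers, and with the block 1 macrophage and 1 epicardial marker passed. With every row tested, no macrophage, epicardial or erythroid marker passed (0 of each list).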
